A study of Mus musculus with 6 samples.

Results

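The negative limb of the circadian clock was examined in the tibialis anterior (TA) muscle of mice without muscle Bmal1, through 8 genes that encode repressors of transcription from E-box elements. These were the Period genes Per1, Per2 and Per3, the cryptochromes Cry1 and Cry2, Ciart, and the basic helix-loop-helix repressors Bhlhe40 and Bhlhe41. They were taken by symbol, with earlier results of these data known, from the 55401 genes of the count table, and all 8 were among the 17222 genes with enough counts to be tested. RNA-seq compared 3 muscles injected with an adeno-associated virus (AAV) carrying GFP (AAV-GFP) with 3 injected with AAV carrying Rbm20 (AAV-RBM20). RBM20 is a splicing regulator of titin, the giant protein of the sarcomere.

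All 6 samples carried the genotype HSA-MCM-Bmal1-/- on a C57BL/6 background. The paper describes its mice as male and kept under a 12 h light and 12 h dark cycle. Tamoxifen was injected at an age of 12 to 16 weeks, at 2 mg per day for 5 days. AAV was injected into the TA 4 weeks after recombination, and the muscle was taken after 4 more weeks. Cre was driven by the human skeletal actin promoter, so that the vessels, connective tissue, nerve and immune cells of the muscle keep Bmal1. A group with intact Bmal1 was not analysed here, so the comparison asked only what AAV-RBM20 changed on the knockout background. The RBM20 vector held mouse Rbm20 cDNA and was given in a larger amount than the vector for GFP, so that dose and transgene cannot be told apart. The time of day at collection is not given in the sources used here, and the clock phase of the samples is unknown.

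In the mammalian clock, BMAL1 and its partner CLOCK bind E-box elements and switch on the Period and cryptochrome genes. PER and CRY proteins then gather in the nucleus and repress BMAL1 and CLOCK, which closes a loop of about a day. CIART (also called CHRONO) and the proteins of Bhlhe40 and Bhlhe41 (also called DEC1 and DEC2) repress the same E-box activity, CIART by binding BMAL1 and the DEC proteins also by occupying E-boxes. Period genes also carry other elements, among them D-boxes, bound by DBP, TEF, HLF and their opponent NFIL3, and cAMP response elements.

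The start regions of the members were inspected first, because an E-box is the element through which Bmal1 would act on these genes. RefSeq start regions (GRCm38.p6, 250 bases before to 50 after the start site) were matched for 6 of the 8 genes, in 7 windows since Per1 has 2, and Per2 and Bhlhe40 were the genes not matched. Both strands were searched for the E-box CACGTG, the E-box-like CACGTT, which reads AACGTG on the other strand, the D-boxes TTATGTAA and TTACGTAA, the ROR elements TAGGTCA and TGGGTCA, and the cAMP element TGACGTCA. The windows of Per3, Ciart, Cry1 and the first of Per1 are shown because they hold the contrast between D-box and E-box matches, in the direction of transcription and with every match in capitals.
Per3, chr4:151044616-151044915, minus strand: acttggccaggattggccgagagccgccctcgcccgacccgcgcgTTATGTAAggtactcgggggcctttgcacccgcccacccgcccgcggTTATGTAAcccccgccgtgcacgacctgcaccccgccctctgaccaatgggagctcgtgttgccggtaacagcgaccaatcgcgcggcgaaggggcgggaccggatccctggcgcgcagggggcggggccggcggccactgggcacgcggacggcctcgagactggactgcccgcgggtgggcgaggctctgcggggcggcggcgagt
Ciart, chr3:95882179-95882478, minus strand: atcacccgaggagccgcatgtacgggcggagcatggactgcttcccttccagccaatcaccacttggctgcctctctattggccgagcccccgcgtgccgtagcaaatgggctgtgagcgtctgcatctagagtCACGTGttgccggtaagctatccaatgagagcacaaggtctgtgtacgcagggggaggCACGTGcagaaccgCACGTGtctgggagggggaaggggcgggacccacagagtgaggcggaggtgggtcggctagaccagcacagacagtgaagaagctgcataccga
Cry1, chr10:85185005-85185304, minus strand: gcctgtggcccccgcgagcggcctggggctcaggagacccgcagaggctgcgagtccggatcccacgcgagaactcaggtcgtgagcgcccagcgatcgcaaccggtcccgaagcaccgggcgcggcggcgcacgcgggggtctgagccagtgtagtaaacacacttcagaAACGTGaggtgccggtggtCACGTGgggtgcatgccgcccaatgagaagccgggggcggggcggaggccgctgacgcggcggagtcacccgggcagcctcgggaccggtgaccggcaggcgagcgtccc
Per1, chr11:69098699-69098998, plus strand: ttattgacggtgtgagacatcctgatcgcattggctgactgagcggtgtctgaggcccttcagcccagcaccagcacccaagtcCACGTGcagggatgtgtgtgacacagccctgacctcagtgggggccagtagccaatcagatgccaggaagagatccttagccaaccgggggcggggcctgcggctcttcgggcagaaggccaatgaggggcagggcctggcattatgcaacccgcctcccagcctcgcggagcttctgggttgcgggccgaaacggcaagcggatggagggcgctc

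Per3 held no E-box in its window and had 2 copies of the D-box TTATGTAA, which begin 205 and 158 bases before the start site. Ciart held 3 E-boxes, at 116, 58 and 44 bases before its start. Cry1 had an E-box at 60 and an E-box-like element at 79 bases before the start, and the first Per1 window had an E-box at 166 bases before the start. Of the windows not printed, Bhlhe41 held an E-box at 153 bases and Cry2 an E-box-like element at 166 bases before the start, and the second Per1 window held no match. Among 32544 start regions of the same length in the table, 7.17% held the E-box, 4.71% the E-box-like element, 1.05% a D-box, 6.48% a ROR element and 1.80% the cAMP element. A match is a run of letters and not a measured binding site, and elements outside these windows were not searched. Only exact matches were counted, and a link between a match and the level of its gene was not tested.

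Libraries held between 41400132 and 54226618 counts, and levels are given as CPM, counts scaled by TMM to a common library size. The libraries numbered 3 stood apart in both groups, with 4.48% and 9.05% of counts from Ttn against 16.9% to 17.8% in the others, and 11.4% to 12.5% from mitochondrial genes against 6.41% to 7.67%. Rbm20 itself was measured at 170, 165 and 164 CPM in AAV-GFP and at 499, 545 and 406 CPM in AAV-RBM20. Arntl, the gene symbol of Bmal1, was at 31.0, 36.0 and 38.1 CPM in AAV-GFP and 24.5, 27.6 and 26.9 CPM in AAV-RBM20, a log2 difference of -0.41 ± 0.13 (SE) for which edgeR gave an adjusted p of 0.618. Arntl was thus still counted in every library, and a gene-level count does not show whether the deleted exon is present. Muscle fibre markers summed to between 83370 and 138300 CPM in every library, so the labelled tissue was present.

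**Figure D1:**
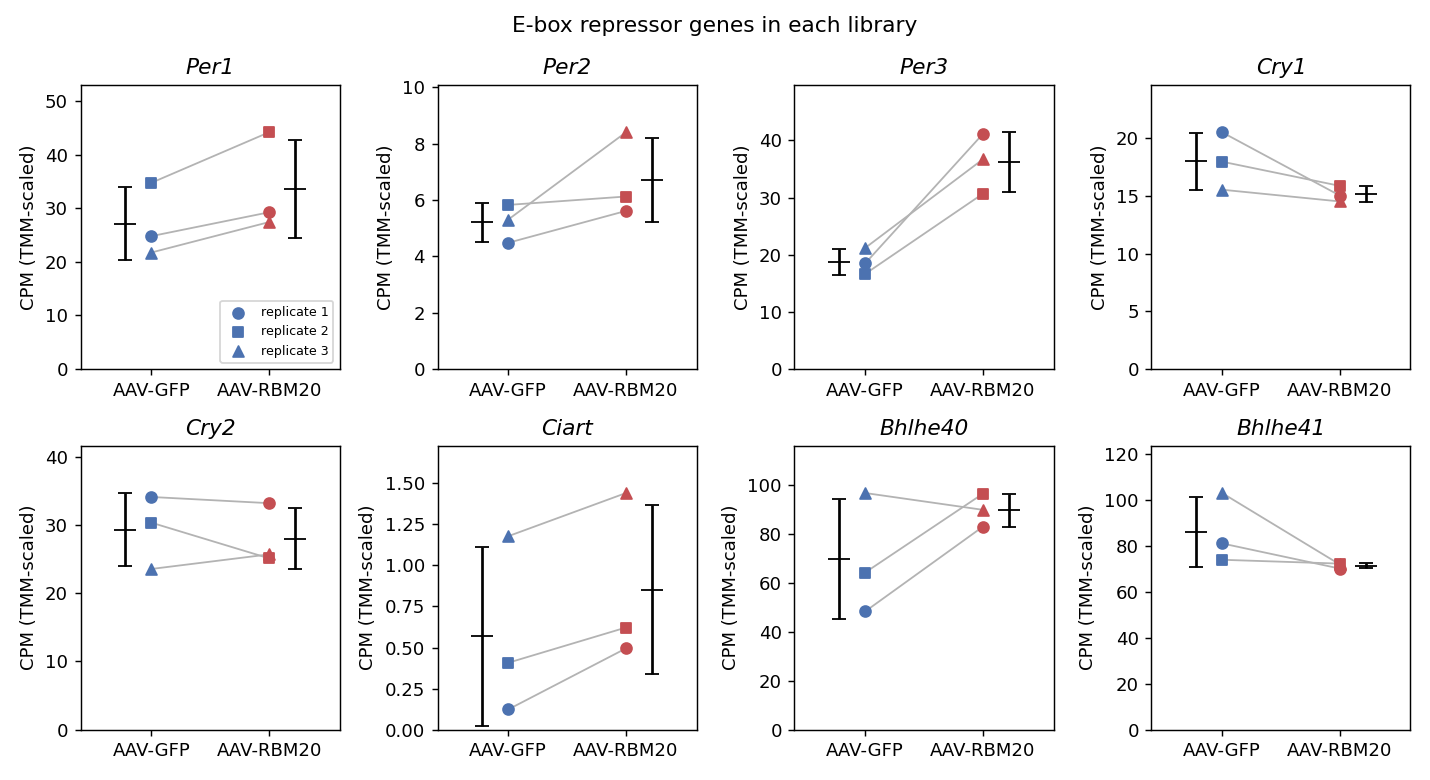
Level of each of the 8 genes in TMM-scaled CPM (linear axes from 0), with AAV-GFP on the left and AAV-RBM20 on the right of each panel. Each point is a library, its shape gives the replicate number, grey lines join libraries of the same number, and black bars give the mean and SD (n = 3). The groups stand apart without overlap for Per3 (16.6 to 21.2 against 30.7 to 41.2 CPM) and Bhlhe41 (73.9 to 103 against 70.0 to 72.2 CPM).

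Of the 8 genes, Per3 showed the largest fold change with all 6 libraries, though Ciart exceeded it without AAV-GFP replicate 3 or without both libraries numbered 3, and Per3 was the only one that passed a test over all genes in any setting run. Per3 encodes a Period protein with a modest part in the core loop. It lies on chromosome 4 (GRCm38, 151003652 to 151044665, minus strand). The 3 AAV-GFP libraries held 18.5, 16.6 and 21.2 CPM, and the 3 AAV-RBM20 libraries held 41.2, 30.7 and 36.7 CPM. Every AAV-RBM20 library was above every AAV-GFP library, and the groups did not overlap. The mean went from 18.8 ± 2.29 CPM (SD, n = 3) to 36.2 ± 5.26 CPM (SD, n = 3), a 1.93-fold higher level. These values rest on 694 to 1115 counts per AAV-GFP library and 1233 to 2245 per AAV-RBM20 library. In bulk muscle, more cells of a type that expresses a gene and more RNA per cell cannot be told apart.

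Tested with edgeR's quasi-likelihood method, Per3 had a log2 fold change of 0.95 ± 0.16 (SE). Its unadjusted p of 0.000304 ranked 12 of the 17222 genes tested, and the Benjamini-Hochberg adjusted p was 0.405. No gene of the whole table passed 0.05 in this fit (0.0% of genes called), so Per3 did not pass there either. At an unadjusted p under 0.05, 1 of the 8 members (Per3) was found, against 7.9% of all genes (1360 genes). In the edgeR fit blocked on replicate number, Per3 differed by 0.94 ± 0.10 (SE) on the log2 scale with an adjusted p of 0.0271, and Per3 was 1 of 25 genes called (0.145% of those tested). DESeq2 called Per3 as well, with an adjusted p of 0.000229, among 0.436% of genes called. DESeq2 with the block gave 4.55e-08, among 3.7% called of the 13883 genes that had an adjusted p in that fit. The exact two-sided permutation test gave p = 0.1, the smallest that 3 against 3 samples can give.

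Size and call of Per3 behaved differently across settings. Over 18 alternative settings the log2 fold change of Per3 lay between 0.83 and 1.05. The adjusted p lay between 4.55e-08 and 0.999 and was under 0.05 in 4 of them, the fourth being the fit without the libraries numbered 3 (log2 fold change 1.04 ± 0.15 SE, edgeR adjusted p 0.0192, 4.0% of genes called). Within same-numbered pairs, Per3 was higher in AAV-RBM20 by 1.15, 0.88 and 0.79 on the log2 scale. The gene Camta1 overlaps Per3 on the same strand but shares 0 exon bases with it, and Camta1 was at 26.5, 25.1 and 19.3 CPM in AAV-GFP and 31.0, 28.7 and 25.5 CPM in AAV-RBM20.

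**Figure D2:**
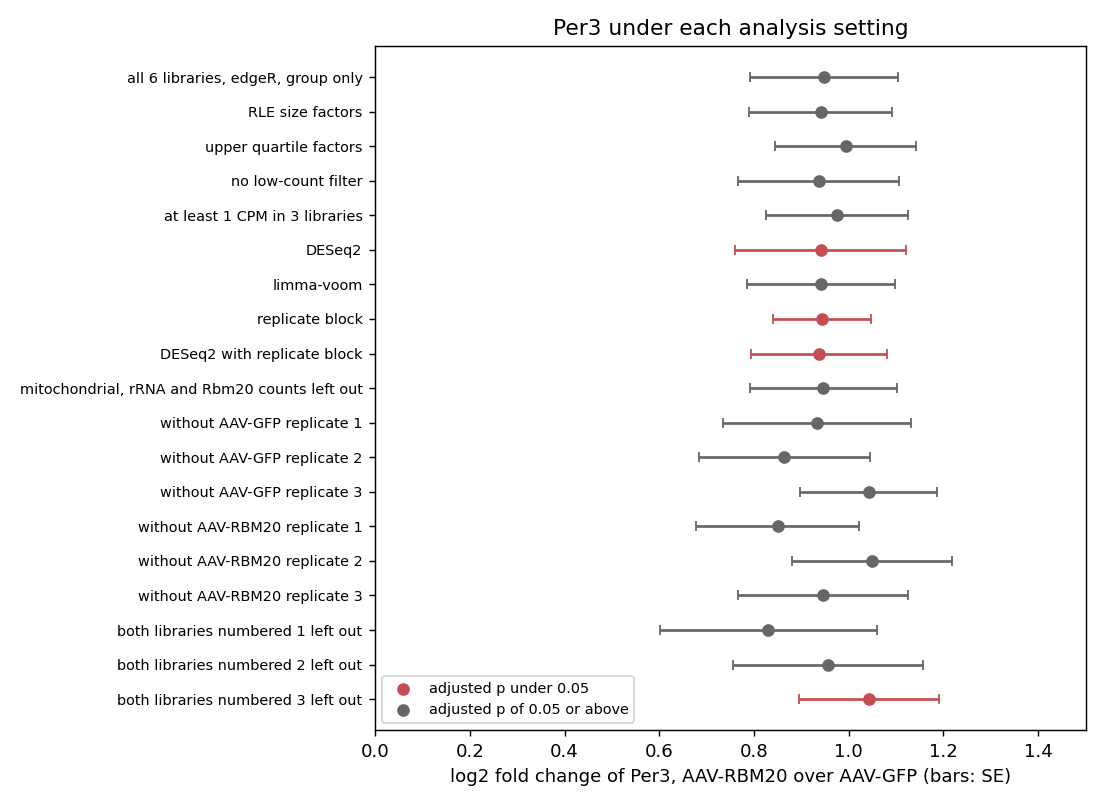
Log2 fold change of Per3 (x axis, AAV-RBM20 over AAV-GFP) for the reported test and each of 18 alternatives (one per line), with bars of 1 SE. Red points have an adjusted p under 0.05 and grey points do not. The points lie between 0.83 and 1.05, and 4 are red.

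Per1 and Per2 did not pass any test over all genes. Per1, on chromosome 11 (69095217 to 69109960, plus strand), encodes a Period protein that also responds quickly to light and stress hormones. Its level was 24.8, 34.8 and 21.7 CPM in AAV-GFP and 29.3, 44.2 and 27.4 CPM in AAV-RBM20. Replicate 2 was the highest library of its group in both groups, and the groups overlapped. Per1 differed by 0.31 ± 0.24 (SE) on the log2 scale, and its adjusted p in edgeR was 0.712. The log2 fold change of Per1 was 0.061 without AAV-RBM20 replicate 2 and 0.53 without AAV-GFP replicate 2, the ends of the range with 1 library left out. Within same-numbered pairs the differences were 0.24, 0.35 and 0.34 on the log2 scale, with an SD over pairs of 0.059 against a median of 0.25 over all genes tested. With the block, the SE of Per1 was 0.088 and its unadjusted p 0.00849, but the edgeR adjusted p of 0.155, the lowest of a range up to 0.999 over the alternatives, did not pass.

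Per2, on chromosome 1 (91415982 to 91459324, minus strand), encodes the Period protein most needed for a stable rhythm of behaviour in mice. It was at 4.48, 5.82 and 5.30 CPM in AAV-GFP and 5.61, 6.12 and 8.40 CPM in AAV-RBM20. AAV-RBM20 replicate 3 was the highest library, and replicates 1 and 2 lay within or just above the range of AAV-GFP. Per2 differed by 0.37 ± 0.20 (SE) on the log2 scale, and its adjusted p in edgeR was 0.658. Leaving out AAV-RBM20 replicate 3 gave a log2 fold change of 0.18 and leaving out AAV-RBM20 replicate 1 gave 0.49, the ends of the range with 1 library left out. The pair differences of Per2 were 0.32, 0.072 and 0.66 on the log2 scale. Values of all 3 Period genes were thus higher in AAV-RBM20 in 3 of 3 pairs, and only Per3 passed a test, in the settings named above.

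Relative to the other Period genes, Per3 took a larger share in AAV-RBM20. Per kb of exon, Per3 held 25.5% of the summed mean Period level in AAV-GFP and 34.6% in AAV-RBM20, Per1 held 62.9% and 54.9%, and Per2 held 11.6% and 10.5%. Within each library, the ratio of Per3 counts to Per1 plus Per2 counts was 0.631, 0.410 and 0.784 for AAV-GFP against 1.18, 0.610 and 1.03 for AAV-RBM20. The ratio was higher in AAV-RBM20 in 3 of 3 pairs, but AAV-RBM20 replicate 2 lay below 2 AAV-GFP libraries. The difference of the log2 ratio was 0.62, and the exact two-sided permutation test over 3 against 3 libraries gave p = 0.3, or 0.4 after adjustment over the 3 ratios computed. With 1 library left out the difference lay between 0.36 and 0.91, the ends being given by leaving out replicate 2 of AAV-GFP and of AAV-RBM20. With 3 against 3 libraries this test could not go below 0.1, so it cannot decide whether Per3 changed unequally from the other Period genes.

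The cryptochromes encode the flavoproteins that give the PER and CRY complex most of its repressing activity. Cry1, on chromosome 10 (85131700 to 85185064, minus strand), was at 20.5, 18.0 and 15.5 CPM in AAV-GFP and 15.0, 15.9 and 14.5 CPM in AAV-RBM20. AAV-RBM20 libraries lay at the low end of the AAV-GFP range, and the groups overlapped through AAV-GFP replicate 3. Its log2 fold change of -0.25 ± 0.14 (SE) had an adjusted p of 0.658 in edgeR, and the pair differences were -0.45, -0.18 and -0.098. With 1 library left out it lay between -0.35 (without AAV-GFP replicate 3) and -0.15 (without AAV-GFP replicate 1).

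Cry2, on chromosome 2 (92403646 to 92434043, minus strand), was at 34.1, 30.3 and 23.5 CPM in AAV-GFP and 33.2, 25.1 and 25.7 CPM in AAV-RBM20. The groups covered the same range. Its log2 fold change of -0.066 ± 0.18 (SE) had an adjusted p of 0.927 in edgeR, and its sign turned to a positive value in 4 alternatives, so that no direction is given. The ratio of Cry1 to Cry2 counts was 0.602, 0.592 and 0.660 for AAV-GFP against 0.453, 0.632 and 0.565 for AAV-RBM20. The difference in the log2 ratio was -0.18, with an exact two-sided permutation p of 0.4 before and after adjustment, and leaving out AAV-RBM20 replicate 1 gave -0.046 and leaving out AAV-RBM20 replicate 2 gave -0.29. An annotated gene on the opposite strand, D930015M05Rik, shares 4.67% of the Cry2 exon bases, and their reads are told apart only if strand was used in counting.

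Ciart was the gene with the lowest level and the widest spread. It lies on chromosome 3 (95878503 to 95882251, minus strand). The AAV-GFP libraries had 5, 17 and 62 counts and the AAV-RBM20 libraries 27, 25 and 70, which gave 0.123, 0.407 and 1.18 CPM against 0.495, 0.622 and 1.44 CPM. The libraries numbered 3 were the highest in both groups, and the groups overlapped. Its within-group SD was 1.16 on the log2 scale, and 1.58% of all genes tested had a larger one. A log2 fold change of 0.55 ± 0.73 (SE) was fitted, with an adjusted p of 0.833 in edgeR, and it was -0.050 without AAV-RBM20 replicate 3 and 1.67 without AAV-GFP replicate 3. Ciart was higher in AAV-RBM20 in 3 of 3 pairs, by 1.70, 0.56 and 0.28 on the log2 scale. No fit called Ciart.

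Bhlhe40 and Bhlhe41 encode closely related repressors that compete with BMAL1 and CLOCK at E-boxes and also respond to cues outside the clock such as low oxygen. Bhlhe40, on chromosome 6 (108660629 to 108666925, plus strand), was at 48.3, 64.3 and 96.8 CPM in AAV-GFP and 83.0, 96.5 and 89.9 CPM in AAV-RBM20. AAV-GFP replicate 3 was the highest of all 6 libraries, and the groups overlapped because of it. Bhlhe40 differed by 0.36 ± 0.24 (SE) on the log2 scale, and its adjusted p in edgeR was 0.680. With 1 library left out it differed by between 0.15 ± 0.21 (SE, without AAV-GFP replicate 1) and 0.67 ± 0.15 (SE, without AAV-GFP replicate 3), with adjusted p of 0.824 and 0.165 in edgeR and a range of 0.143 to 0.999 over the alternatives. The pair differences were 0.78, 0.59 and -0.11.

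Bhlhe41, on the same chromosome (145858243 to 145865558, minus strand), was at 81.0, 73.9 and 103 CPM in AAV-GFP and 70.0, 72.2 and 71.8 CPM in AAV-RBM20. All AAV-RBM20 libraries lay below all AAV-GFP libraries, with 73.9 and 72.2 CPM in the nearest libraries. Bhlhe41 differed by -0.27 ± 0.15 (SE) on the log2 scale, its adjusted p in edgeR was 0.658 and its exact permutation p 0.1. The difference was -0.12 ± 0.10 (SE) without AAV-GFP replicate 3, the library with the highest level, and -0.37 ± 0.16 (SE) without AAV-GFP replicate 2. The gene Gm43909 on the opposite strand shares 19.1% of the Bhlhe41 exon bases, and for Bhlhe40 the gene 0610040F04Rik shares 2.51%, so that both values are uncertain if strand was not used in counting.

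The ratio between the DEC genes stood apart between the groups, in a test that could not pass at this size. The ratio of Bhlhe40 to Bhlhe41 counts was 0.597, 0.870 and 0.940 for AAV-GFP against 1.19, 1.34 and 1.25 for AAV-RBM20. Bhlhe41 had the higher count in every AAV-GFP library and Bhlhe40 in every AAV-RBM20 library. These counts are not divided by exon length, which is 6720 bases for Bhlhe41 and 4705 for Bhlhe40. Per kb of exon, Bhlhe40 was already the higher in AAV-GFP replicates 2 and 3, but not in replicate 1. The AAV-GFP means per kb were 14.8 for Bhlhe40 and 12.8 for Bhlhe41. The overlap of Bhlhe41 with Gm43909 also makes this ratio uncertain if strand was not used in counting. The difference in the log2 ratio was 0.67, from -0.34 ± 0.35 (SD, n = 3) to 0.33 ± 0.087 (SD, n = 3). The exact two-sided permutation test gave p = 0.1, the smallest possible, and 0.3 after adjustment over 3 ratios. The ratio needs no scaling between libraries, and without any one library its log2 difference lay between 0.47 and 0.80.

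Markers of cells outside the fibre were also unequal between libraries. The summed level of 12 macrophage markers was 37.6, 35.1 and 119 CPM in AAV-GFP and 83.0, 74.4 and 160 CPM in AAV-RBM20. Of their 12 log2 fold changes 11 were above 0, with a median of 0.80 against 0.0090 for all genes tested. The summed level of 5 fibroblast markers was 484 to 1020 CPM in AAV-GFP and 836 to 1073 CPM in AAV-RBM20. Of their log2 fold changes 5 of 5 were above 0, with a median of 0.38. In either list 0 markers were called, in the group-only edgeR fit that called 0.0% of all genes. In both lists AAV-GFP replicate 3 was above the other AAV-GFP libraries, as for Per3, Ciart, Bhlhe40 and Bhlhe41. For Per1, Cry1 and Cry2 it was instead the lowest AAV-GFP library, and for Per2 it lay between the others. No marker was at 0 in all libraries. Endothelial markers ranged from 138 to 333 CPM in AAV-GFP and 217 to 327 CPM in AAV-RBM20, and T and B cell markers ranged from 0.443 to 1.27 CPM and 0.796 to 4.30 CPM. Adipocyte markers were at 0.295 to 13.4 and 0.880 to 8.42 CPM, Schwann cell markers at 11.2 to 33.2 and 15.1 to 24.4 CPM, erythroid markers at 4.03 to 10.6 and 2.70 to 27.4 CPM and satellite cell markers at 4.92 to 6.27 and 5.17 to 9.0 CPM, with AAV-GFP first. Of 10 muscle fibre markers, 8 had a log2 fold change below 0, and their sum was lowest in AAV-RBM20 replicate 3. Of the endothelial markers 5 of 5 were above 0. Only 1 of 7 T and B cell markers, 4 of 5 adipocyte markers and 3 of 4 erythroid markers had enough counts to be tested. The group-only edgeR fit called 0 markers of any list. That count was fixed, since this fit called 0.0% of all genes, and calls for these lists were counted in this fit only. The part of these cells in the values of the 8 genes was not tested.

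**Figure D3:**
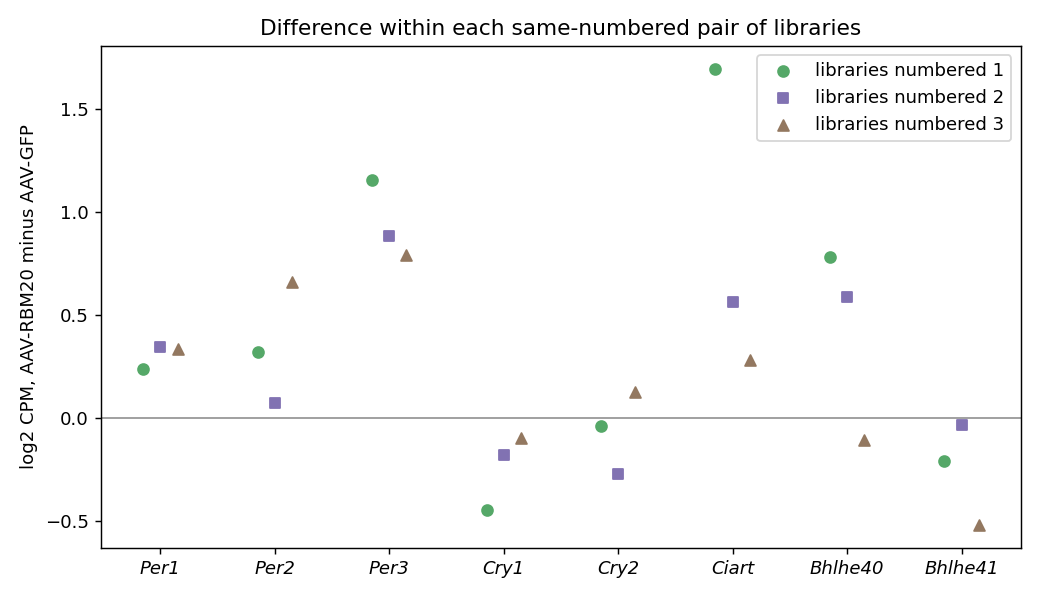
Difference in log2 CPM (y axis, AAV-RBM20 minus AAV-GFP) within each pair of libraries of the same number, for the 8 genes (x axis). Each point is a pair and the line marks 0. All 3 points lie above 0 for Per1, Per2, Per3 and Ciart, all 3 lie below 0 for Cry1 and Bhlhe41, and Cry2 and Bhlhe40 have points on both sides.

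As a group, 5 of the 8 genes had a log2 fold change above 0 and 3 below 0. Their median log2 fold change was 0.34 against 0.0090 for all genes tested, and their median size without sign was 0.34 against 0.21. Direction was shared by all 3 same-numbered pairs in 6 of 8 genes (4 higher and 2 lower in AAV-RBM20), against 45.2% of all genes tested. Groups did not overlap for 2 of the 8 genes, Per3 and Bhlhe41, against 16.8% of all genes. With the replicate block, 3 of 8 genes (Per1, Per3 and Bhlhe40) had an unadjusted p under 0.05, against 18.8% of all genes in that fit. Except for Per3, these shares rest on differences of at most 0.55 on the log2 scale in the fit without the block, none of which passed adjustment.

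**Figure D4:**
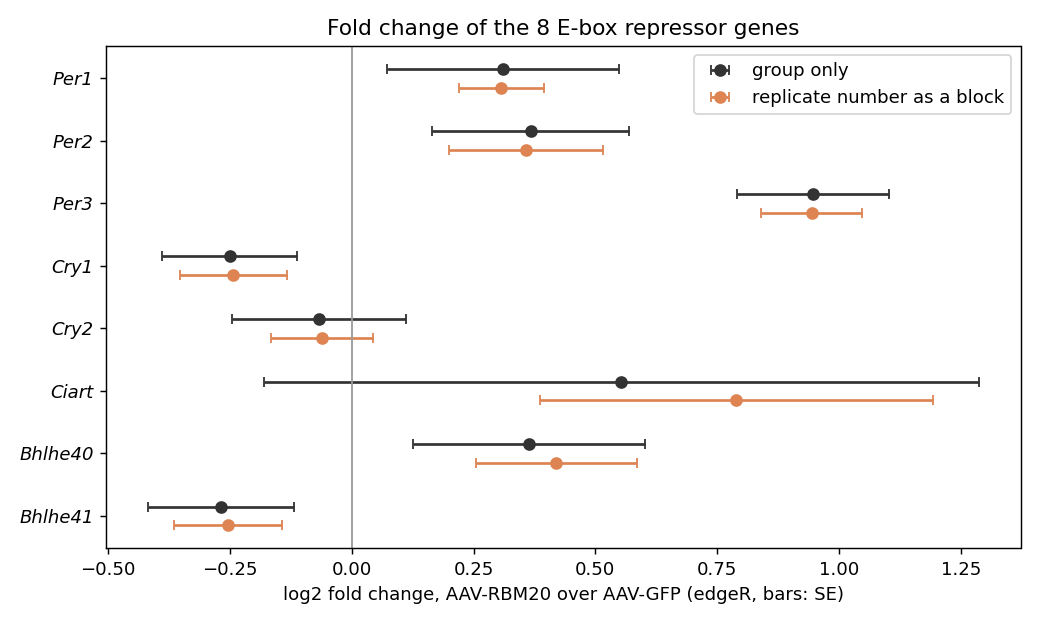
Log2 fold change (x axis, AAV-RBM20 over AAV-GFP) of the 8 genes in edgeR, with bars of 1 SE. Dark points come from the fit with group only and orange points from the fit blocked on replicate number. Per3 lies at 0.95 and 0.94, and the bars of Cry2 and, in the group-only fit, Ciart include 0.

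Compared per length, in CPM per kb of merged exons, the DEC genes were the highest and Ciart the lowest in both groups. The order in AAV-GFP was Bhlhe40 (14.8), Bhlhe41 (12.8), Cry1 (5.39), Per1 (4.81), Cry2 (4.64), Per3 (1.95), Per2 (0.888) and Ciart (0.252). Neighbours whose libraries overlapped in this order were Bhlhe40 and Bhlhe41, Cry1 and Per1, and Per1 and Cry2. In AAV-RBM20 the order was Bhlhe40 (19.1), Bhlhe41 (10.6), Per1 (5.97), Cry1 (4.53), Cry2 (4.43), Per3 (3.77), Per2 (1.15) and Ciart (0.377). There the libraries of Cry1 and Cry2 and those of Cry2 and Per3 overlapped, so that Per3, which lay below Cry2 without overlap in AAV-GFP, reached the range of Cry2 in AAV-RBM20 with its highest library. Within groups, 3 of the 8 genes (Per1, Ciart and Bhlhe40) varied more than the median gene tested.

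**Figure D5:**
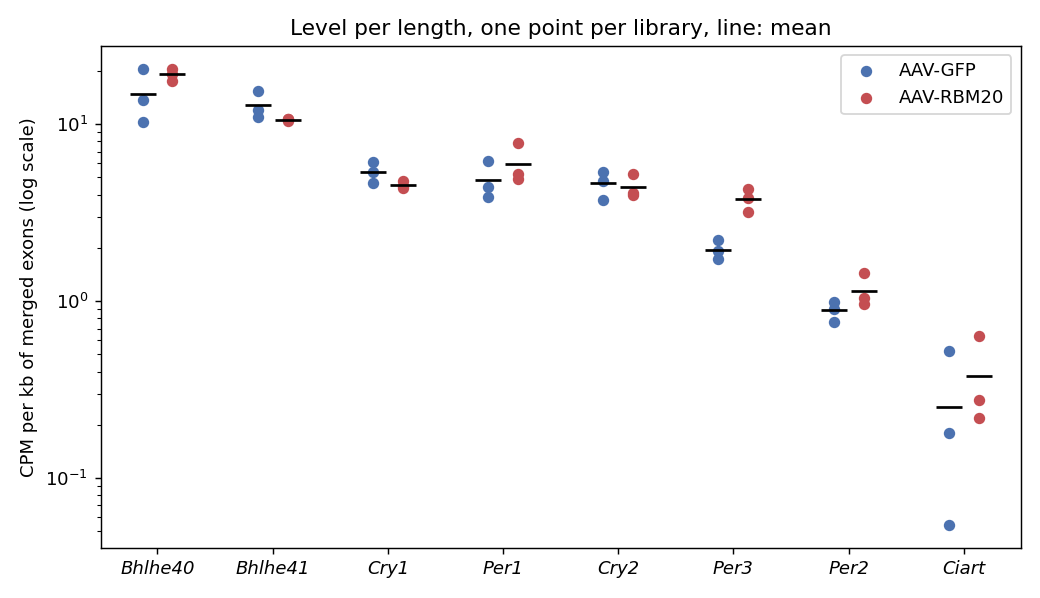
Level per length of the 8 genes (y axis, CPM per kb of merged exons, log scale), ordered by the mean in AAV-GFP. Each point is a library and each line the group mean. Per3 has a mean of 1.95 in AAV-GFP and 3.77 in AAV-RBM20, where its highest library reaches the range of Cry2.

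Other genes of the clock were read from 4 lists. Over all genes tested, edgeR called 0.0% without the block and 0.145% with it. A count of 0 without the block was thus fixed for every list. Of 6 clock activators, Arntl, Clock and Npas2 among them, 0 passed in either direction with or without the block in edgeR. All 6 log2 fold changes were below 0, with a median of -0.37. The list holds Arntl, the deleted gene, and Rorb, at 4 to 32 counts per library. Direction was shared by all 3 same-numbered pairs in 4 of the 6, against 45.2% of all genes tested. Npas2 and Rorb were each higher in AAV-RBM20 in 1 of 3 pairs.

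Of the 6 REV-ERB and D-box factor genes, 0 passed without the block and 1 passed with it. Of their log2 fold changes 4 were above and 2 below 0, with a median of 0.20. All 3 same-numbered pairs shared direction in 3 of the 6, against 45.2% of all genes tested. The gene that passed was Nfil3, the repressor that binds D-boxes, at 27.8, 36.7 and 21.6 CPM in AAV-GFP and 13.7, 21.7 and 11.8 CPM in AAV-RBM20. Nfil3 differed by -0.87 ± 0.27 (SE) on the log2 scale with an adjusted p of 0.618 in edgeR, and by -0.88 ± 0.098 (SE) with 0.0271 in the block, and its adjusted p ranged from 5.17e-07 to 0.999 over the alternatives. The groups of Nfil3 overlapped by the nearest pair of libraries only. Dbp and Tef, activators at D-boxes, had log2 fold changes of 0.66 ± 0.50 and 0.13 ± 0.20 (SE), and Hlf -0.77 ± 0.52 (SE), none of which passed. A link between any of these factors and Per3 was not tested.

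Among 15 genes for kinases, ubiquitin ligases and other partners of PER and CRY proteins, 14 were tested and 0 passed with or without the block. Their log2 fold changes had a median of -0.10, with 5 above and 9 below 0. All 3 same-numbered pairs shared direction in 10 of the 14, against 45.2% of all genes tested. Fbxl21 was the gene not tested. Csnk2b, the regulatory subunit of casein kinase 2, had the smallest p, with 47.9 CPM in AAV-GFP and 37.1 CPM in AAV-RBM20 on average, a log2 difference of -0.37 ± 0.14 (SE) and 0.618 as adjusted p in edgeR. Of 9 clock output genes of muscle, 0 passed without the block and 1, Rbm20, passed with it. Rbm20 is the gene that the vector carried, so its higher level is no result about clock outputs. The list, with Rbm20 included, had 5 log2 fold changes above and 4 below 0, with a median of 0.069. All 3 same-numbered pairs shared direction in 6 of its 9 genes. Rbm20 was higher by 1.53 on the log2 scale (edgeR adjusted p 0.0107 in the block, from 1.3e-31 to 0.999 over the alternatives).

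The genes whose log2 CPM followed each member most closely over the 6 libraries were read from 11548 genes whose mean log2 CPM was 1 or more. They were Stard7 (Pearson r = 0.993) and Lims1 (0.991) for Per3, Gm5105 (0.985) and Apbb3 (0.985) for Per1, and Slfn5 (0.983) and Plod2 (0.975) for Per2. For Cry1 they were Llgl2 (0.985) and Ncoa5 (0.983), for Cry2 Igfn1 (0.990) and Hspb6 (0.981), and for Ciart Mbip (0.993) and Arpc5 (0.988). For Bhlhe40 they were Reps2 (0.986) and Phtf1 (0.981), and for Bhlhe41 Mrps7 (0.999) and Pkdcc (0.997). With so many genes and 6 libraries of shared depth and group, values this high are a description only. Among the members themselves, r ranged from -0.92 (Cry1 with Bhlhe40) to 0.89 (Ciart with Bhlhe40).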

How the data were processed

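RNA was sequenced from TA muscle of 3 AAV-GFP and 3 AAV-RBM20 samples, grouped by the labels, with replicate numbers from the titles. The labels do not say that samples came from separate animals, so p-values measure only the spread between these samples, which may be technical. Blot labels in the paper's supplement list the GFP and the Rbm20 vector for opposite sides of some animals. Which animals were sequenced is not given in the sources used here. The authors aligned reads to mm10 (HISAT2) and obtained counts for Ensembl genes (HTSeq), and the deposited counts are raw whole numbers. Versions, annotation release and strand setting are not given in the sources used here. A deposited table of counts divided by DESeq2 size factors was not used.

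Symbols (55141 of 55401 identifiers), GRCm38 positions and merged exon lengths came from GENCODE M21. Counts were tested with edgeR 4.0.16 in R 4.3.3 (filterByExpr, TMM, robust glmQLFit and glmQLFTest, group only, two-sided), with Benjamini-Hochberg adjustment over 17222 genes and a threshold of 0.05. The SE is the size of the log2 fold change divided by the square root of F. Log2 CPM used a prior count of 2. Ratios and single genes were compared with exact two-sided permutation tests, which cannot go below 0.1 with 3 against 3. The procedure was tested on counts simulated with a common dispersion for all genes and no replicate effect. Unlike these data, they held no library set apart. That test therefore does not bear on the block or on the libraries numbered 3. Counts differed between replicates of a group by more than sampling noise (chi-square per degree of freedom 15.1 to 545), so none was a copy.

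Same-numbered libraries deviated together from their group means, with correlations across genes of 0.42, 0.20 and 0.48. All exceeded the minimum of 0.1, so samples of one number were treated as pairs. The AAV-RBM20 samples are numbered 1 to 3 in their titles but 4 to 6 in the descriptions and count columns, so every blocked or pair value rests on the titles. What a number marks is not in the labels. Of the differently numbered pairs, 2 of 6 also exceeded 0.1. AAV-GFP 2 with AAV-RBM20 1 reached 0.22, above the 0.20 of the libraries both numbered 2. These correlations therefore do not settle the pairing, and every blocked or pair value carries that limit. Alternatives were other size factors and filters, DESeq2 1.42.0, limma-voom (limma 3.58.1), the replicate block, other library sizes and libraries left out. The text names all 8 members, Rbm20, Arntl, the gene of smallest p in each clock list (1 of these is not reported here), and the 2 genes most like each member. Camta1, the D-box factors beside Nfil3 and overlapping genes were named after their values were seen. Members and lists were chosen with earlier results of these data known.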

Additional observations from a re-analysis of the deposited data

How the results depend on the processing

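The count of genes past the threshold was 0 in edgeR (1360 at an unadjusted p under 0.05), in limma-voom (1386 unadjusted), and without any single library (675 to 2020 unadjusted). It was 8 with no low-count filter, 25 with the replicate block (15 higher and 10 lower), 75 in DESeq2 (36 and 39), 513 in DESeq2 with the block (182 and 331) and 690 without both libraries numbered 3 (337 and 353). The count of members past the threshold was 1, Per3, in DESeq2, in the block, in both together and without both libraries numbered 3, and 0 in the other settings. Per3 had log2 fold changes of 0.94, 0.94, 0.94 and 1.04 in these fits, and its adjusted p was 0.091 to 0.988 with 1 library left out. The block changed no other call among the members. Cry2 reversed to 0.0087 without both libraries numbered 2 and ranged from -0.20 to 0.053 with 1 library left out, and Ciart ranged from -0.050 to 1.67. DESeq2 with the block gave an adjusted p for 13883 genes only, and Ciart was not among them. The cause was not tested. The log2 differences of the ratios kept their sign without any one library but moved in size, from 0.36 to 0.91 for Per3 to Per1 plus Per2, -0.29 to -0.046 for Cry1 to Cry2 and 0.47 to 0.80 for Bhlhe40 to Bhlhe41, and were 0.62, -0.18 and 0.67 as means of same-numbered pairs in the replicate block, as without it. The other 6 members kept their sign in all 18 alternatives, with ranges over single libraries left out of 0.061 to 0.53 for Per1, 0.18 to 0.49 for Per2 and 0.15 to 0.67 for Bhlhe40. Ciart rests on counts of 5 to 70 per library, and 3 samples per group limit every permutation test.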
